A study of Mus musculus with 7 samples.

Results

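Transcripts of the chemokine system were examined in hematopoietic stem cells (HSCs) sorted from the bone marrow of Ahr-KO mice and WT mice. The members were the genes whose symbol on the platform annotation is Ccl, Cxcl, Ccr, Cxcr or Ackr with a number, together with Cx3cl1, Cx3cr1, Xcl1, Xcr1 and Gpr182. Only rows annotated to 1 gene were taken, which gave 58 probe sets for 57 of the 22180 genes measured. They comprised 19 CC ligands, 13 CXC ligands, 2 other ligands, 18 receptors and 5 atypical receptors, and a gene with several probe sets was read from the one with the highest mean log2 intensity over the 7 arrays. Cxcl11 is a transcribed pseudogene in the RefSeq annotation of this mouse strain and was kept. The array rows of Ccl19, Ccl21 and most of Ccl27 name several near-identical genes and are not among the members.

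The Ahr-KO group had 3 arrays from Ahr knockout mice and the WT group 4 arrays from mice with wild-type Ahr, the gene of the ligand-activated aryl hydrocarbon receptor. Both groups were on the C57BL/6J background and were killed at 8 weeks of age without a treatment named in the labels. Marrow was depleted of lineage-positive cells, stem cells were selected by SLAM-family surface markers, and amplified cDNA was hybridised to single-channel Affymetrix arrays. The labels do not say how the knockout allele was made, the sex of the mice, or whether an array stands for 1 mouse or a pool, so p-values measure the spread between arrays, which may be technical.

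Chemokines are small secreted proteins that direct cell migration by binding G-protein-coupled receptors. CC and CXC chemokines are named for the spacing of their first cysteines. Atypical receptors bind chemokines without G-protein signalling and scavenge or present them. In bone marrow, Cxcl12 from stromal cells retains Cxcr4-bearing stem cells in their niche, and Ccl3 is known as a restraint on stem cell proliferation.

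On the array scale, median intensity was 16.9 to 20.3 on Ahr-KO arrays and 16.95 to 22.1 on WT arrays. A background mark was set on each array from 1091 probe sets of olfactory receptors, at their 95th percentile, 33.8 to 37.8 on Ahr-KO arrays and 34.2 to 42.9 on WT arrays. The probe set of Ahr itself read 26.4 to 137 in Ahr-KO and 14.9 to 57.9 in WT; which part of the gene it covers is not stated, so it is no check of the genotype, and Ahr-KO is the label's name. All 11 measured HSC markers of 13 listed exceeded the mark on at least 1 array, 8 to 10 of them on each Ahr-KO array and 6 to 11 on each WT array. By difference, 4 were higher and 7 lower, and Slamf1, a sorting marker, was the 1 with an unadjusted p under 0.05, at 2.58 ± 0.97 (SE) higher in Ahr-KO. Slamf1 was above the mark on all 3 Ahr-KO arrays but on only 1 WT array, and its groups overlap. Kit, the stem cell factor receptor, read 653 to 833 in Ahr-KO and 747 to 1258 in WT. Granulocyte and monocyte markers summed to 8170 to 21300 over 14 genes on Ahr-KO arrays and 2580 to 21700 on WT arrays.

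No member passed the threshold after adjustment. Differences are Ahr-KO minus WT of log2(intensity + 1), fitted with limma over 25335 annotated probe sets and adjusted by Benjamini-Hochberg. None of the 57 members reached an adjusted p under 0.05, nor did any of the 25335 probe sets (0%), and the lowest limma adjusted p of a member was 0.961. Without adjustment, 6 members, or 10.5%, had a p under 0.05, against 4.21% of all probe sets. Of these, 5 had higher values in Ahr-KO (Gpr182, Ackr1, Ccl3, Cxcl9 and Ccr9; 1.99% of all probe sets did so) and 1, Ccr4, had lower values (2.22% of all probe sets). The genotypes had no overlap in 8 members, or 14%, against 5.74% of all probe sets. Ahr-KO was the higher group in 7 of them (2.61% of all probe sets) and the lower in 1 (3.13% of all probe sets). The members divided evenly in direction, with 28 higher and 29 lower and a median log2 difference of 0.00, beside -0.03 over all 22180 genes. Counts at an unadjusted p under 0.05 given elsewhere for roles and marker lists stand beside the same 4.21% of all probe sets.

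Much of the chemokine system gave little signal. Above the mark on all 7 arrays were 3 members (5.26%, against 13.7% of all genes), and 22 were above it on no array (38.6%, against 34.4% of all genes). The remaining 32 exceeded it on some arrays. On each array, 14 to 18 members exceeded the mark in Ahr-KO and 11 to 20 in WT. No member was above the mark on every array of one genotype and on none of the other. Intensities of different probe sets cannot be ranked against each other.

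**Figure D1:**
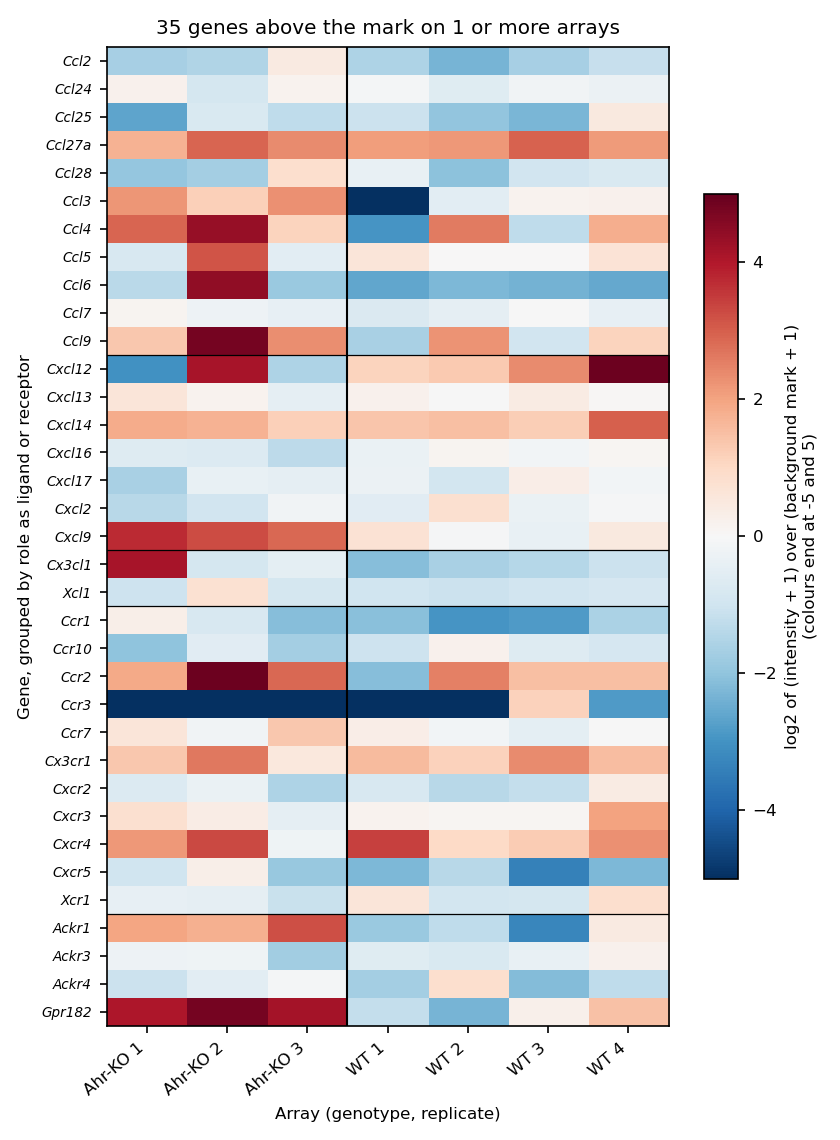
Heat map of the 35 members above the background mark on 1 or more arrays, with 3 Ahr-KO arrays left of 4 WT arrays. Colour gives log2 of (intensity + 1) over (mark + 1) for each array, red above the mark and blue below it, with colours ending at -5 and 5; black lines part CC ligands, CXC ligands, other ligands, receptors and atypical receptors. Gpr182, Ackr1, Cxcl9, Ccl3, Ccl4 and Ccl9 are above the mark on all 3 Ahr-KO arrays and on 1 or 2 WT arrays. The groups overlap for Ccl4 and Ccl9.

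Cxcl9 had the smallest unadjusted p of the members. Cxcl9 is induced by interferon gamma and attracts activated T and NK cells through Cxcr3. Its intensity was 507, 336 and 283 on Ahr-KO arrays, against 65.3, 40.6, 32.1 and 48.4 on WT arrays. All Ahr-KO arrays lay above all WT arrays, and of the WT arrays only replicates 1 and 4 exceeded the mark. The Ahr-KO mean was 376 ± 117 (SD, n = 3), beside a WT mean of 46.6 ± 14.1 (SD, n = 4). On the log2 scale Cxcl9 differed by 2.99 ± 0.47 (SE; limma unadjusted p = 0.00023, adjusted p = 0.961), with a 95% interval of 1.90 to 4.07. It ran from 2.75 to 3.17 when single arrays were left out. Macrophage and dendritic markers, whose cells are a known source of Cxcl9, were measured for 11 of 12 genes and summed to 409 to 917 on Ahr-KO arrays and 846 to 1630 on WT arrays. Of these, 9 were lower in Ahr-KO and 2 higher, and H2-Eb1, a class II antigen-presenting gene, was the 1 with an unadjusted p under 0.05, at -2.30 ± 0.75 (SE). Their part in the Cxcl9 values was not tested.

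The other interferon-inducible ligands of Cxcr3 are Cxcl10 and Cxcl11. Cxcl10, which lies close to Cxcl9 on chromosome 5 with only Art3 between them among coding genes, read 3.26, 20.2 and 1.83 on Ahr-KO arrays, against 19.4, 4.88, 28.7 and 22.6 on WT arrays, all below the mark. Its log2 difference was -1.43 ± 0.86 (SE), and Cxcl11, also below the mark on every array, differed by -0.05 ± 0.43 (SE), or by 0.02 after quantile normalization or median centring. Their common receptor gene, Cxcr3, read 64.9, 44.5 and 27.5 on Ahr-KO arrays, against 44.2, 45.9, 45.7 and 141 on WT arrays. Those groups overlap, with a log2 difference of -0.48 ± 0.59 (SE), or -0.07 without WT replicate 4.

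Cxcl10 was below the mark on every array and its 95% interval of -3.42 to 0.57 spans both signs. A direction opposite to that of Cxcl9 is therefore not established. The start regions of Cxcl9 and Cxcl10 are shown as those of neighbouring ligands of Cxcr3. Each window holds 250 bases before to 50 bases after the gene start, from RefSeq on GRCm38.p6, at chr5:92328030-92328329 for Cxcl9 and chr5:92348840-92349139 for Cxcl10, both on the minus strand and printed 5′ to 3′. Capitals mark matches on either strand to the core of the AhR response element (GCGTG), to the gamma activated site (TTCNNNGAA) or to the NF-kB consensus.
Cxcl9: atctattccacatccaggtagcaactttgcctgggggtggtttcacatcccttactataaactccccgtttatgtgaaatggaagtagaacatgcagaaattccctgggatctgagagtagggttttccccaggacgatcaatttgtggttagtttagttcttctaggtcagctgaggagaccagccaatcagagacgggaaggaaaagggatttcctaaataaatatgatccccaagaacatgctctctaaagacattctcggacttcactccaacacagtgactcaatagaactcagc
Cxcl10: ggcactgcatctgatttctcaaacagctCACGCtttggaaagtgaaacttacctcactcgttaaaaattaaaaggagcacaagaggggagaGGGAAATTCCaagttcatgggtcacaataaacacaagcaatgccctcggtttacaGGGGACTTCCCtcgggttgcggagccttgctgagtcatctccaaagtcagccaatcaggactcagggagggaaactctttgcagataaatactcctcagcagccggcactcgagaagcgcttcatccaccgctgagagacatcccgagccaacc
The Cxcl9 window held no match to any of the 3 motifs. The Cxcl10 window held 1 AhR core match, which begins 222 bases before the start, and 3 NF-kB matches, of which 2 overlap each other. Over the 46 start windows of 42 members in the table, 39.1% held the AhR core, beside 32.4% of all 32851 windows of that length. The gamma activated site was found in 8.7% of the member windows and 8.3% of all windows, and the NF-kB consensus in 26.1% of the member windows and 8.46% of all. These are exact matches of letters, so a window with none may still hold a site that varies from the pattern. Binding was not measured here.

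CXC ligands other than Cxcl9 had mostly lower values in Ahr-KO. Of the 12, 11 had a negative difference, with a median of -0.75, while 48.4% of all genes had a positive one. None of the 12 had an unadjusted p under 0.05 in the limma fit, and 6 were above the mark on no array. Cxcl16, a membrane-anchored ligand of Cxcr6, read 23.4, 20.4 and 14.8 on Ahr-KO arrays, against 31.0, 47.3, 38.6 and 36.6 on WT arrays. It was the 1 member whose Ahr-KO values all lay below the WT values, and only WT replicates 2 and 4 exceeded the mark. Its log2 difference was -0.95 ± 0.43 (SE). Cxcl2, a neutrophil attractant that acts through Cxcr2, read 13.5, 16.8 and 33.5 on Ahr-KO arrays, against 26.3, 75.9, 33.7 and 32.6 on WT arrays, which differ by -0.93 ± 0.56 (SE) on the log2 scale. It lies in a run of neighbouring genes on chromosome 5 with Cxcl3, Cxcl15 and Cxcl1, whose differences, Cxcl2 included, ran from -0.93 to 0.23. Cxcl17, a mucosal chemokine, read 11.3, 26.0 and 27.4 on Ahr-KO arrays, against 32.2, 22.5, 54.0 and 31.2 on WT arrays, which differ by -0.70 ± 0.53 (SE) on the log2 scale. Cxcl14, a homeostatic chemokine above the mark on all arrays, read 139, 115 and 87.0 on Ahr-KO arrays, against 104, 124, 99.5 and 276 on WT arrays. Those groups overlap. The log2 difference of Cxcl14 was -0.30 ± 0.52 (SE), or 0.04 without WT replicate 4. Counting all 13 CXC ligands, 11 were lower, and 10 to 12 were lower under every alternative that kept all 13.

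**Figure D2:**
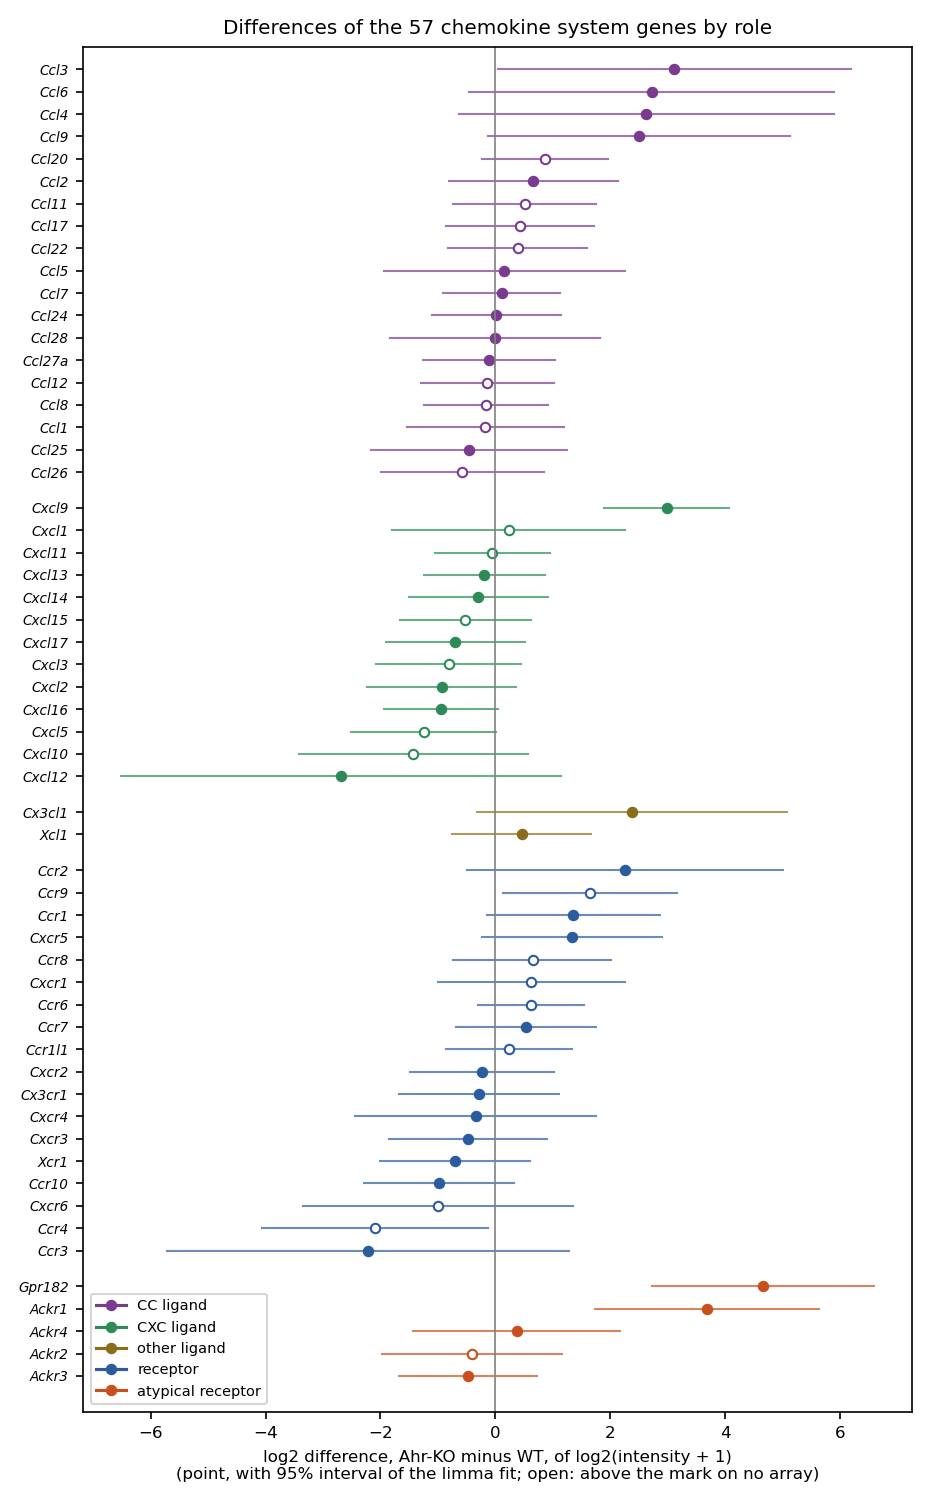
Log2 differences (Ahr-KO minus WT, horizontal axis) of the 57 members, grouped by role and sorted within a role, each with the 95% interval of the limma fit. Open points were above the mark on no array. The interval lies wholly above 0 for Gpr182, Ackr1, Cxcl9, Ccl3 and Ccr9 and wholly below 0 for Ccr4, before any adjustment.

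Ccl5, Ccl9, Ccl6, Ccl3 and Ccl4 follow each other on chromosome 11 in RefSeq's coding order, and all 5 had a positive difference, from 0.16 to 3.12. Of these, 1, Ccl3, had an unadjusted p under 0.05 and none an adjusted one, and Ccl5 turned to -1.05 without Ahr-KO replicate 2. The 6 genes of the other CC cluster on that chromosome, Ccl2, Ccl7, Ccl11, Ccl12, Ccl8 and Ccl1, differed by -0.18 to 0.66, and 4 of them were above the mark on no array. Of all 19 CC ligands, 12 were higher, with a median difference of 0.16, and between 10 and 16 were higher under the alternatives that kept all 19.

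Ccl3, a ligand of Ccr1, read 174, 77.8 and 186 on Ahr-KO arrays, against 0.04, 29.1, 48.1 and 39.7 on WT arrays. The groups did not overlap, and WT replicate 1 was close to 0. The Ahr-KO mean was 146 ± 59.3 (SD, n = 3), beside a WT mean of 29.2 ± 20.9 (SD, n = 4). Ccl3 thus differed by 3.12 ± 1.33 log2 units (SE; limma unadjusted p = 0.0474, adjusted p = 0.963), or 1.81 without WT replicate 1. Adding 16 in place of 1 before the logarithm gave 1.94.

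Ccl4, the neighbour of Ccl3 and an attractant of monocytes and T cells, read 290, 710 and 84.0 on Ahr-KO arrays, against 4.24, 263, 17.1 and 124 on WT arrays. Its groups overlap, and the log2 difference was 2.63 ± 1.41 (SE), or 1.63 without WT replicate 1. Ccl9, a myeloid chemokine that binds Ccr1, read 95.5, 948 and 195 on Ahr-KO arrays, against 11.9, 207, 21.2 and 76.0 on WT arrays. The log2 difference of Ccl9 was 2.50 ± 1.14 (SE), or 1.57 without Ahr-KO replicate 2. Ccl6, another myeloid ligand of Ccr1, read 13.9, 741 and 9.65 on Ahr-KO arrays, against 5.56, 8.34, 7.40 and 5.01 on WT arrays. The values did not overlap, but the Ccl6 signal exceeded the mark on Ahr-KO replicate 2 alone. Its log2 difference was 2.72 ± 1.37 (SE), and 0.76 without that array. Ccl5, which is made by T and NK cells, was likewise highest on Ahr-KO replicate 2 and read 21.1, 304 and 26.3 on Ahr-KO arrays, against 59.7, 44.0, 42.3 and 56.1 on WT arrays. The other Ahr-KO values of Ccl5 lay below all WT values, and the log2 difference was 0.16 ± 0.91 (SE), or -1.05 without Ahr-KO replicate 2.

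T and NK markers, 10 of 11 measured, summed to 447 to 1130 on Ahr-KO arrays, highest on replicate 2, and 267 to 691 on WT arrays. On Ahr-KO replicate 2 Nkg7 alone read 770, and 3 of the 10 exceeded the mark. By difference, 5 were higher and 5 lower, 4 were above the mark on no array, and none had an unadjusted p under 0.05.

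The windows of Ccl3 and Ccl9 are shown as members of one neighbourhood with positive differences, from RefSeq on GRCm38.p6 at chr11:83649329-83649628 and chr11:83578587-83578886, both on the minus strand and marked as above.
Ccl3: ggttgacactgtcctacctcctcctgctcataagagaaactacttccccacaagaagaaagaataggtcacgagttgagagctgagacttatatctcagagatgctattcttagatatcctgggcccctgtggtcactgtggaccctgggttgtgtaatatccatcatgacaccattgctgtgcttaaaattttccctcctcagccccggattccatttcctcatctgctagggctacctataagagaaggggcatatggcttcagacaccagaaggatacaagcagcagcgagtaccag
Ccl9: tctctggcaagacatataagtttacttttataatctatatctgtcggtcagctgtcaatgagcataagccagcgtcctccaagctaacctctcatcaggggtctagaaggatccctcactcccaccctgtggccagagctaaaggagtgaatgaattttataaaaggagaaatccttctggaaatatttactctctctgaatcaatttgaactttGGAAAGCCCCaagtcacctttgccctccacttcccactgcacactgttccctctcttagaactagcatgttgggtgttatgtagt
The Ccl3 window held no match to the 3 motifs, and the Ccl9 window held 1 NF-kB match, which begins 35 bases before the start.

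**Figure D3:**
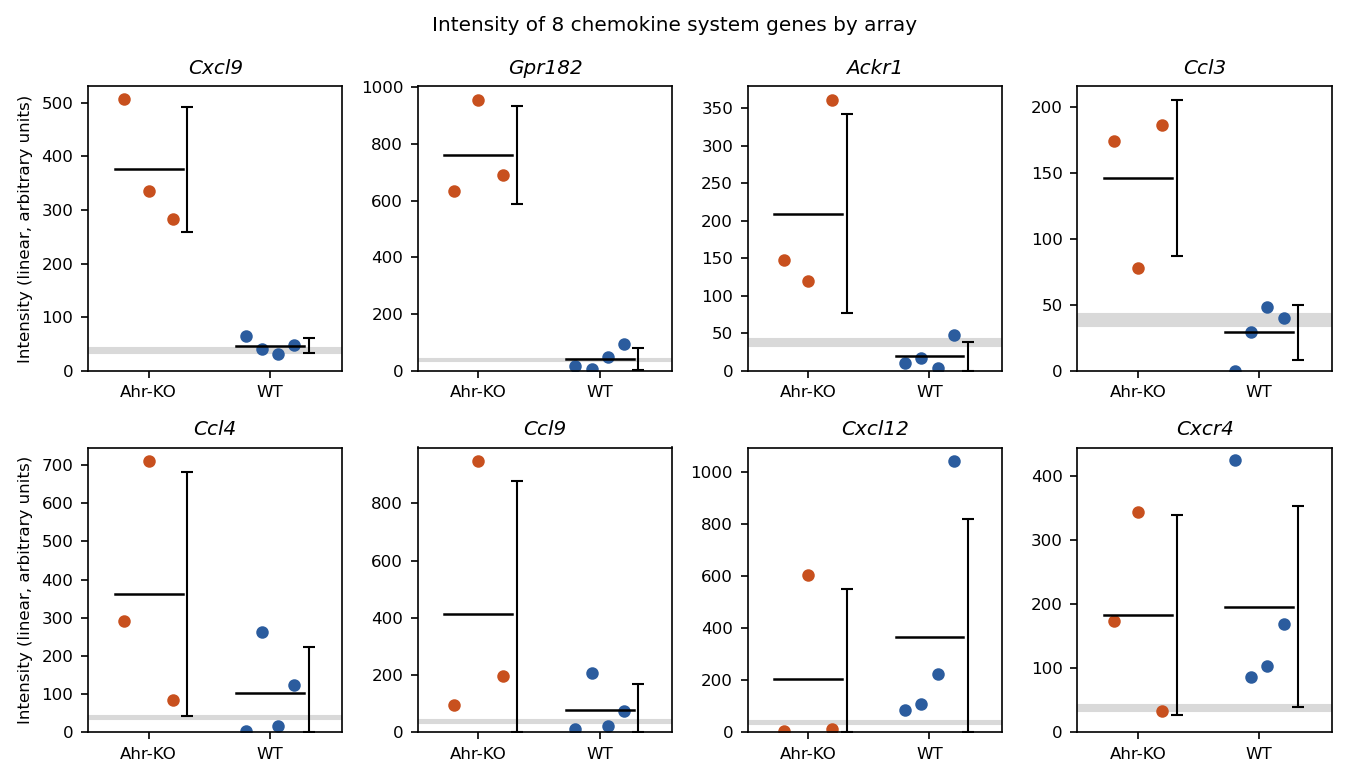
Linear intensity of 8 members by array, with Ahr-KO points left of WT points. Horizontal lines are group means, error bars are SD (n = 3 Ahr-KO, n = 4 WT, ended at 0 where the SD would pass it), and the grey band spans the background marks of the 7 arrays. The groups do not overlap for Cxcl9, Gpr182, Ackr1 and Ccl3, and overlap for Ccl4, Ccl9, Cxcl12 and Cxcr4.

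Granulocyte and monocyte markers varied between arrays together with some of these genes. The mean of log2 values was higher in Ahr-KO for all 14 markers, by a median of 1.07, and 1 of them, Fcgr3, had an unadjusted p under 0.05. By the mean of linear intensity 10 were higher and 4 lower, and without WT replicate 1 the log2 means were higher for 9 and lower for 5, with a median of 0.18. Their mean log2 level was 8.02, 9.38 and 7.66 on Ahr-KO arrays, against 4.93, 9.10, 8.02 and 7.23 on WT arrays. Ahr-KO replicate 2 was highest and WT replicate 1 lowest. Ccl4, Ccl9 and Ccr2 were also highest on Ahr-KO replicate 2 and lowest on WT replicate 1, and Ccl3 was lowest on WT replicate 1. The part of these markers in the differences was not tested. In bulk samples, more cells of a type and more RNA per cell cannot be told apart.

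Among the remaining ligands, Cx3cl1, the membrane-bound chemokine fractalkine, read 667, 18.1 and 27.0 on Ahr-KO arrays, against 8.09, 13.2, 15.1 and 15.7 on WT arrays. The groups did not overlap, but only Ahr-KO replicate 1 exceeded the mark. The log2 difference was 2.38 ± 1.17 (SE), and 0.76 without that array. Ccl27a, the skin-associated ligand of Ccr10, was the 1 member with 2 probe sets annotated to it alone. The brighter read 125, 258 and 200 on Ahr-KO arrays, against 169, 194, 330 and 152 on WT arrays, which differ by -0.11 ± 0.50 (SE) on the log2 scale. The other read 64.8, 377 and 99.8 on Ahr-KO arrays, against 46.3, 20.0, 79.0 and 170 on WT arrays, which differ by 1.16 ± 0.88 (SE) on the log2 scale. They differ in sign, and Ccl27a has near-identical copies that probes may share. The dimmer probe set had the same value on every array as some Ccl27 rows that name several genes. It is therefore not a separate measurement from those rows and may not be specific to Ccl27a.

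Atypical receptors held 2 of the 6 members with an unadjusted p under 0.05, which 4.21% of all probe sets had. Gpr182, an endothelial receptor that scavenges several CXC chemokines, read 635, 956 and 691 on Ahr-KO arrays, against 16.7, 7.72, 50.7 and 95.5 on WT arrays. The lowest Ahr-KO value was above the highest WT value, and only WT replicates 3 and 4 exceeded the mark. Gpr182 differed by 4.66 ± 0.84 log2 units (SE; limma unadjusted p = 0.00056, adjusted p = 0.961), with a 95% interval of 2.73 to 6.60. With a pseudocount of 16 it was 3.96.

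Ackr1, the Duffy antigen receptor for chemokines on erythroid cells and venular endothelium, read 148, 119 and 362 on Ahr-KO arrays, against 10.1, 17.3, 3.51 and 47.4 on WT arrays. Its groups did not overlap either, and among WT arrays only replicate 4 exceeded the mark. The Ahr-KO mean was 210 ± 132 (SD, n = 3), beside a WT mean of 19.6 ± 19.4 (SD, n = 4). Ackr1 differed by 3.69 ± 0.84 log2 units (SE; limma unadjusted p = 0.00247, adjusted p = 0.963), or 2.66 with a pseudocount of 16, and its 95% interval was 1.74 to 5.64. The other atypical receptors, Ackr2, Ackr3 and Ackr4, differed by -0.40, -0.47 and 0.38, with 95% intervals of -1.97 to 1.17, -1.68 to 0.73 and -1.43 to 2.18. The Ackr1 window is shown at chr1:173333454-173333753 on the minus strand of GRCm38.p6.
Ackr1: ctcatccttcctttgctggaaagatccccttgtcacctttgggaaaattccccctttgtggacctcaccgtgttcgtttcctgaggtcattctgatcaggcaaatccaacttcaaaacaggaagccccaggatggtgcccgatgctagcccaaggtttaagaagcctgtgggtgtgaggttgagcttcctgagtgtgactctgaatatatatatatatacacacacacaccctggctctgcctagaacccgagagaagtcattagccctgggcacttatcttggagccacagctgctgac
It held no match to the 3 motifs.

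Endothelial markers were present on arrays of both genotypes and were uneven. Of 13 listed and measured, 7 had higher and 6 lower values in Ahr-KO, with a median log2 difference of 0.15, and 1, Ptprb, was above the mark on no array. An unadjusted p under 0.05 was found in 2, or 15.4%, against 4.21% of all probe sets. The 2 with an unadjusted p under 0.05 were higher: Flt4, the lymphatic and sinusoidal receptor VEGFR3, read 115, 158 and 53.6 on Ahr-KO arrays, against 40.8, 17.6, 20.6 and 23.4 on WT arrays, which differ by 1.99 ± 0.55 (SE) on the log2 scale. Cdh5, the endothelial cadherin, read 104, 509 and 67.4 on Ahr-KO arrays, against 5.38, 51.3, 68.8 and 30.2 on WT arrays, which differ by 2.40 ± 1.01 (SE) on the log2 scale. The summed intensity of the list was 1080 to 2050 on Ahr-KO arrays and 691 to 1580 on WT arrays. Kdr, the receptor VEGFR2, and the sinusoidal scavenger receptors Stab2 and Stab1 differed by 2.01 ± 1.09, 2.13 ± 1.24 and 1.76 ± 1.81 (SE). The remaining markers differed by 0.47 for Emcn, 0.15 for Ptprb, -0.10 for Plvap, -0.13 for Tie1, -0.18 for Lyve1, -0.35 for Robo4, -0.62 for Vwf and -1.08 for Pecam1. Of 6 erythroid markers, 3 were measured, with a summed intensity of 178 to 356 on Ahr-KO arrays and 57.4 to 168 on WT arrays. Their mean log2 levels overlapped, at 5.59, 6.44 and 5.31 on Ahr-KO arrays, against 5.58, 2.96, 5.41 and 4.94 on WT arrays. By difference, 2 were higher and 1, Tfrc, was lower at -0.13, and none had an unadjusted p under 0.05. The part of endothelial or erythroid cells in the Gpr182 and Ackr1 values was not tested.

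**Figure D4:**
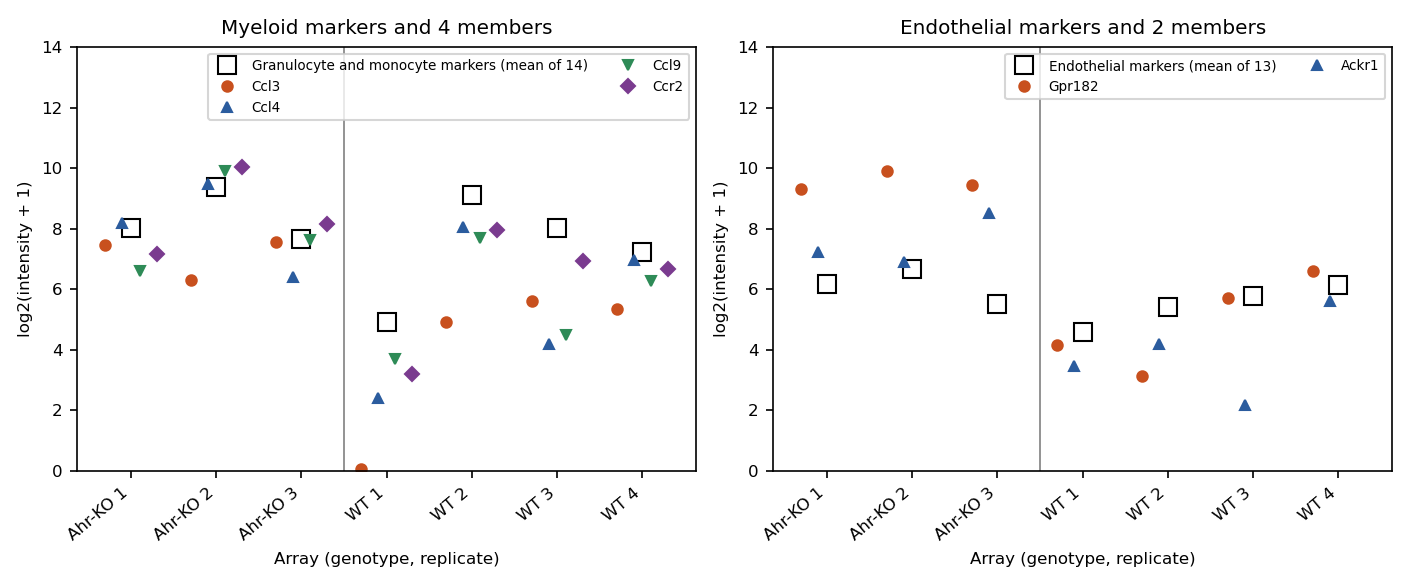
Log2(intensity + 1) by array, with 3 Ahr-KO arrays left of 4 WT arrays. Left panel: mean of 14 granulocyte and monocyte markers (open squares) with Ccl3, Ccl4, Ccl9 and Ccr2; right panel: mean of 13 endothelial markers (open squares) with Gpr182 and Ackr1. WT replicate 1 is lowest for the myeloid list at 4.93 and for the endothelial list at 4.57, and Gpr182 lies above every WT value on each Ahr-KO array.

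The axis of Cxcl12, Cxcr4 and Ackr3, which governs stem cell retention, had no member with an unadjusted p under 0.05. Cxcl12 read 3.71, 603 and 12.5 on Ahr-KO arrays, against 85.8, 109, 224 and 1042 on WT arrays. Cxcl12 exceeded the mark on all 4 WT arrays but on replicate 2 alone in Ahr-KO, where it lay above 3 of the 4 WT values. Cxcl12 differed by -2.69 ± 1.66 log2 units (SE, limma unadjusted p = 0.144, adjusted p = 0.963). Without Ahr-KO replicate 2, its highest Ahr-KO array, the difference was -4.77 (limma unadjusted p = 0.00357, adjusted p = 0.717). Without Ahr-KO replicate 1 it was -1.27 (limma unadjusted p = 0.469, adjusted p = 0.996). Stromal markers, whose cells are the known source of Cxcl12 in marrow, summed to 194 to 435 over 10 genes on Ahr-KO arrays and 239 to 379 on WT arrays, and 5 of the 10 were above the mark on no array. By difference, 4 of the stromal markers were higher and 6 lower, with a median of -0.2. The 1 with an unadjusted p under 0.05 was Pdgfrb, a stromal growth factor receptor, at -1.44 ± 0.51 (SE). Pdgfrb was above the mark on 1 WT array and on no Ahr-KO array, and such markers were not uniformly lower. Their part in the Cxcl12 values was not tested.

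Cxcr4 read 173, 343 and 32.6 on Ahr-KO arrays, against 424, 86.7, 103 and 169 on WT arrays. The groups overlap widely, with an Ahr-KO mean of 183 ± 155 (SD, n = 3), beside a WT mean of 196 ± 156 (SD, n = 4). On the log2 scale Cxcr4 differed by -0.34 ± 0.91 (SE; limma adjusted p = 0.981), and the 95% interval of -2.44 to 1.76 admits sizeable changes in either direction. Leaving out Ahr-KO replicate 3 turned it to 0.61 and leaving out WT replicate 1 to 0.13. Ackr3, which scavenges Cxcl12, read 30.9, 28.7 and 10.6 on Ahr-KO arrays, against 25.2, 24.8, 32.2 and 39.5 on WT arrays, above the mark on WT replicate 4 alone. The Cxcr4 window, at chr1:128592250-128592549 on the minus strand of GRCm38.p6, is shown because it holds 1 AhR core match, in capitals, which begins 39 bases before the start.
Cxcr4: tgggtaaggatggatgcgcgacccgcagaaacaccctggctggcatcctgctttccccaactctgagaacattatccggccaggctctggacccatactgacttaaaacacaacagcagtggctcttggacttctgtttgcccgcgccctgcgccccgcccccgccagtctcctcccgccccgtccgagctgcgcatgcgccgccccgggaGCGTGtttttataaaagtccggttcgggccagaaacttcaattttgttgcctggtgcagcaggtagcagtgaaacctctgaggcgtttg
It held no match to the gamma activated site or the NF-kB consensus.

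Of the 18 conventional receptors, 9 had higher and 9 lower values in Ahr-KO, with a median difference of 0.00. Ccr2, which brings monocytes out of marrow in response to Ccl2 and Ccl7, read 143, 1038 and 282 on Ahr-KO arrays, against 8.21, 247, 122 and 99.7 on WT arrays. The groups overlap at WT replicate 2. Its log2 difference was 2.26 ± 1.19 (SE), or 1.26 without WT replicate 1, the WT array below the mark. Ccr1, the receptor of Ccl3, Ccl6 and Ccl9, read 46.0, 19.2 and 7.79 on Ahr-KO arrays, against 8.57, 4.72, 5.09 and 10.8 on WT arrays. Only Ahr-KO replicate 1 exceeded the mark for Ccr1, and the log2 difference was 1.36 ± 0.65 (SE), or 0.75 without it. Cx3cr1, the fractalkine receptor of monocytes, was above the mark on all arrays and read 96.1, 216 and 54.6 on Ahr-KO arrays, against 120, 96.8, 220 and 102 on WT arrays, which differ by -0.28 ± 0.60 (SE) on the log2 scale, or by 0.18 without Ahr-KO replicate 3.

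The receptors with an unadjusted p under 0.05 were both dim. Ccr9, the gut-homing receptor for Ccl25, read 8.73, 9.53 and 15.8 on Ahr-KO arrays, against 1.55, 2.18, 10.4 and 1.33 on WT arrays, which differ by 1.65 ± 0.66 (SE) on the log2 scale. Ccr4, a receptor of skin-homing and type 2 helper T cells, read 1.99, 6.26 and 0 on Ahr-KO arrays, against 22.3, 17.6, 9.94 and 3.17 on WT arrays, which differ by -2.09 ± 0.85 (SE) on the log2 scale. Both were below the mark on every array, and their groups overlap. With a pseudocount of 16 the differences were 0.48 for Ccr9 and -0.61 for Ccr4, and neither had an unadjusted p under 0.05. Ccr6, the receptor of Ccl20, was also below the mark throughout, though its values of 31.2, 24.1 and 28.4 on Ahr-KO arrays did not overlap those of 18.1, 18.8, 15.8 and 17.9 on WT arrays; its log2 difference was 0.63 ± 0.40 (SE).

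Other receptors with negative differences rested on few arrays above the mark. Ccr10, bound by Ccl27 and Ccl28, read 8.48, 22.8 and 10.8 on Ahr-KO arrays, against 18.6, 50.3, 27.0 and 18.7 on WT arrays, which differ by -0.98 ± 0.56 (SE) on the log2 scale, with WT replicate 2 alone above the mark. Ccr3, the eotaxin receptor of eosinophils and basophils, was listed at 0 on all 3 Ahr-KO arrays and read 0, 0, 94.3 and 3.93 in WT, so no fold is given. The 7 mast cell and basophil markers split into 4 higher and 3 lower, and the 7 measured of 8 B lymphoid markers were all lower, with a median of -0.19; neither list had a gene with an unadjusted p under 0.05. Xcr1, the receptor of cross-presenting dendritic cells for Xcl1, read 27.8, 24.5 and 16.8 on Ahr-KO arrays, against 60.4, 22.3, 22.9 and 62.0 on WT arrays, which differ by -0.70 ± 0.56 (SE) on the log2 scale.

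Genes that act downstream of chemokine receptors were split in direction. Of 35 measured G-protein, arrestin, kinase and GTPase genes of 38 listed, 18 had higher and 17 lower values, with a median of 0.11, and none had an unadjusted p under 0.05. The G-protein gene Gnaq read 0.48, 8.90 and 163 on Ahr-KO arrays, against 350, 99.0, 99.9 and 74.3 on WT arrays, with overlap and a log2 difference of -3.25 ± 1.45 (SE). Gnai3, an inhibitory G-protein subunit through which chemokine receptors signal, differed by 2.13 ± 1.14 (SE).

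Among 30 measured genes of the interferon gamma and NF-kB pathways, which induce many chemokines, 16 had higher and 14 lower values, with a median of 0.03. At an unadjusted p under 0.05, 2 were higher and 1 lower, together 3 of 30 or 10%. Of all probe sets 4.21% had such a p, 1.99% higher and 2.22% lower. Ifngr2, a subunit of the interferon gamma receptor, read 197, 248 and 956 on Ahr-KO arrays, against 137, 103, 17.5 and 59.3 on WT arrays, without overlap. The log2 contrast was 2.52 ± 0.86 (SE; limma adjusted p = 0.963). Gbp3, an interferon-induced GTPase, differed by 1.76 ± 0.71 (SE), with groups that overlap. The cytokine gene Il1b differed by -1.34 ± 0.50 (SE), was above the mark on 3 WT arrays and no Ahr-KO array, and did not overlap. Of 19 genes of chemokine handling and adhesion, 12 were higher and 7 lower. An unadjusted p under 0.05 was found in 1, or 5.26%, near the 4.21% of all probe sets. It was Sdc1, a heparan sulphate proteoglycan that can bind chemokines. Sdc1 read 61.5, 57.03 and 22.1 on Ahr-KO arrays, against 16.1, 13.5, 16.7 and 14.4 on WT arrays.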

How the data were processed

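Per the submitters' processing notes, Affymetrix Expression Console was used; the method of summarization and normalization is not stated in those notes. The authors deposited 1 linear intensity per probe set and array for 41155 probe sets. Of these, 25335 were listed in the platform annotation and tested, 23521 with 1 gene symbol and 1814 with several; the other 15820 were unnamed here. Symbols were updated through Entrez ID with the GRCm38.p6 RefSeq table, which matched all 57 members. No genome build is stated for the array, and coordinates are printed only for RefSeq start windows.

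Values were transformed as log2(intensity + 1) and fitted with limma 3.58.1 (R 4.3.3; lmFit, eBayes) on the 7 arrays, with a single genotype term. P-values are two-sided, with Benjamini-Hochberg adjustment over 25335 probe sets. Standard errors and intervals are moderated. Arrays have no sequencing depth, and their number sets the precision. The procedure was tested on simulated data.

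The members, marker lists and background mark were chosen with earlier results of these data known. Named with values were Cxcl9, Ccl3, Gpr182 and Cxcr4, the 10 members of highest mean, up to 8 per direction of smallest unadjusted p among those above the mark on an array, those above it on all 7, and the receptors or ligands Cxcr3, Ccr1, Cxcl12 and Ackr3. Others are named for their role, neighbourhood or dim signal, and list genes by smallest unadjusted p. Kit and the other endothelial markers were named after their values were seen, as were the checks of marker lists by linear mean and without WT replicate 1.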

Additional observations from a re-analysis of the deposited data

Results flagged for a closer look

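In each of the 57 members, the WT arrays were checked for 1 array standing apart from the other 3 on the log2 scale (Dixon's test). This met 4 members, and chance alone flags about 1 in 20 groups. Cxcr3 read 140.76 on WT replicate 4, against 44.2 to 45.9 on the other WT arrays. The remaining 3 lay below the background mark: Ccl3 read 0.04 on WT replicate 1, against 29.1 to 48.1 on the others, Cxcr6 was listed at 0 on the same array, against 10.2 to 12.3, and Ccl11 read 11.13 on WT replicate 2, against 16.4 to 16.5.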

How the results depend on the processing

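Alternatives comprised dropping single arrays, a block for replicate number, normalization by quantiles, centring on the median, a pseudocount of 16, a filter on dim probe sets and all 41155 rows. The count of members at a limma adjusted p under 0.05 was 0 in each of these fits, with a lowest member adjusted p of 0.353 to 0.996. The count at an unadjusted p under 0.05 was 5 to 8 without single arrays and 4 to 8 over all alternatives, which included a trended variance prior (7) and every member probe set (6). It was 8 with the replicate block. Gpr182, Ackr1 and Cxcl9 were among them in all 14 fits and Ccl3 in 9. The median difference over members stayed between -0.06 and 0.14. Of 31 members followed through the alternatives, 23 named by the rule and 8 outside it, 25 reversed in no alternative that kept them and 6 did. Ackr3 came to 0 without Ahr-KO replicate 3, which was not counted as a reversal. Without single arrays Cxcr4 ran from -1.07 to 0.61, Ccl27a from -0.35 to 0.17, Cx3cr1 from -0.80 to 0.18, Ccl5 from -1.05 to 0.84, Cxcl11 from -0.18 to 0.12 and Cxcl14 from -0.45 to 0.04. Cxcl14 was 0.04 with the replicate block too, and Cxcl11 was 0.02 with quantile normalization and with median centring. Deviations of same-numbered arrays from their group means had r across probe sets of 0.023, -0.065 and 0.01. Differently numbered arrays gave -0.084 to 0.123. With so few arrays these values cannot show whether same-numbered arrays share a batch, and the labels name no pairing. In the limma fit with the replicate block, Ccl4, Ccl9 and Ccr2 joined the members with an unadjusted p under 0.05, and Ccr9 left them. Dim signal limits 22 of the 57 members, which were above the mark on no array.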

Other observations

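Array rows of Ccl19, Ccl21 and Ccl27 that name several near-identical genes were tested with all other rows but belong to no member. The 13 rows of Ccl19, a ligand of Ccr7 made by lymphoid stroma, held 8 distinct sets of values. All were lower in Ahr-KO, with log2 differences of -2.88 to -0.52, and none had an unadjusted p under 0.05 in the limma fit. One row did not overlap between genotypes: it read 19.5, 23.0 and 15.0 on Ahr-KO arrays, against 24.4, 31.7, 1420 and 388 on WT arrays. The 9 rows of Ccl21, with 4 distinct sets, differed by -0.59 to -0.22, and the 11 rows of Ccl27, with 9 distinct sets, by -1.41 to 1.16. These rows share probes or sequence, so they are not independent measurements.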
